A study of Mus musculus with 2 samples.

Results

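A group of 7 microRNA hairpins known from neurons and from chromaffin cells was examined in mouse adrenal gland: Mir7b, Mir137, Mir218-1, Mir218-2, Mir129-1, Mir129-2 and Mir153. The members were taken by name from the 2202 microRNA genes counted. MicroRNA sequencing gave 2 libraries, both from B6CASTF1/J males 25 days old, which formed 1 group. B6CASTF1/J is the first-generation cross of a C57BL/6J and a CAST/EiJ parent. The tissue was whole adrenal gland, with no treatment, no genetic change and no second group. The labels count the samples as separate biological replicates and name separate animals but list a single donor, so the spread between them may be technical.

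Chromaffin cells are the catecholamine-secreting cells of the adrenal medulla. They arise from the neural crest, as sympathetic neurons do, and they share with neurons the machinery of regulated secretion from dense-core vesicles. A microRNA gene is transcribed as a precursor that folds into a hairpin, and its arms are cut out as short mature microRNAs. A mature microRNA finds its messenger RNAs mainly by its seed, bases 2 to 8 from the 5′ end, and lowers their output. miR-7 is abundant in pituitary, in pancreatic islets and in hypothalamus, and the circular RNA Cdr1as binds it in brain. miR-137 acts in neural progenitors and at synapses, miR-218 marks motor neurons, and miR-129 and miR-153 are enriched in brain. Tissue RNA was sequenced in bulk, so the cell that made each hairpin was not measured, and fewer cells of a type cannot be told apart from less RNA per cell.

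The mature sequences show which members can be told apart by their reads. They are RefSeq entries on GRCm38.p6, which were found for 7 of 7 members, and the capitals mark the seed.
miR-7b-5p of Mir7b: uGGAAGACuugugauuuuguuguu
miR-7a-5p of Mir7-1 and Mir7-2: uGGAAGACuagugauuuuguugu
miR-137-3p of Mir137: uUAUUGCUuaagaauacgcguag
miR-218-5p of Mir218-1 and Mir218-2: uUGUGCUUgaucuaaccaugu
miR-218-1-3p of Mir218-1: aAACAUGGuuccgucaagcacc
miR-218-2-3p of Mir218-2: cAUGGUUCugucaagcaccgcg
miR-129-5p of Mir129-1 and Mir129-2: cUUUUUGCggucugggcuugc
miR-129-2-3p of Mir129-2: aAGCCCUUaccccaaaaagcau
miR-153-3p of Mir153: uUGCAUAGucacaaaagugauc
The 7 members carry 11 different annotated mature sequences with 11 different seeds. No seed is shared between the miR-7, miR-137, miR-218, miR-129 and miR-153 families.

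Reads with several mapping positions carry no gene count, and they were 31.6% of the input reads in replicate 1 and 27.0% in replicate 2. Mir7b, Mir137 and Mir153 share no stretch of 20 bases with another annotated hairpin, so their reads of 20 or more bases, matched exactly, are unique among these. Shorter reads, matches with a mismatch and the rest of the genome were not searched. The other 4 members share such stretches with their own copy, and their counts are those of reads that happened to differ between copies. For the miR-218 pair the shared stretch is 22 bases, from base 25 to base 46 in each hairpin, and it holds the whole of miR-218-5p and 1 base beyond it. For the miR-129 pair it is 26 bases over miR-129-5p and a further 21 bases over the 3′ arm. The hairpins are shown with their annotated mature arms in capitals.
Mir218-1: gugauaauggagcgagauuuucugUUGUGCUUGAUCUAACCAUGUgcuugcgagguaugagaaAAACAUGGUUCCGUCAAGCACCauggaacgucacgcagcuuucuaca
Mir218-2: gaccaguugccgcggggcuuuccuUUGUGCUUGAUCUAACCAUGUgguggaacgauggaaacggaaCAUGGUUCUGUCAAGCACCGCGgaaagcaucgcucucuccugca
Mir129-1: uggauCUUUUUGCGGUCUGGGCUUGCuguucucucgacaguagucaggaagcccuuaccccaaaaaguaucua
Mir129-2: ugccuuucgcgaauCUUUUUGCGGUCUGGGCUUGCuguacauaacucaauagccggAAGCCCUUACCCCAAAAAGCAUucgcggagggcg
The annotated 3′ arms of Mir218-1 and Mir218-2 start at different bases and differ in sequence, while the 3′ arm of Mir129-2 leaves the shared stretch only in its last bases. The unique counts of these 4 hairpins are therefore lower limits to their output.

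**Figure D1:**
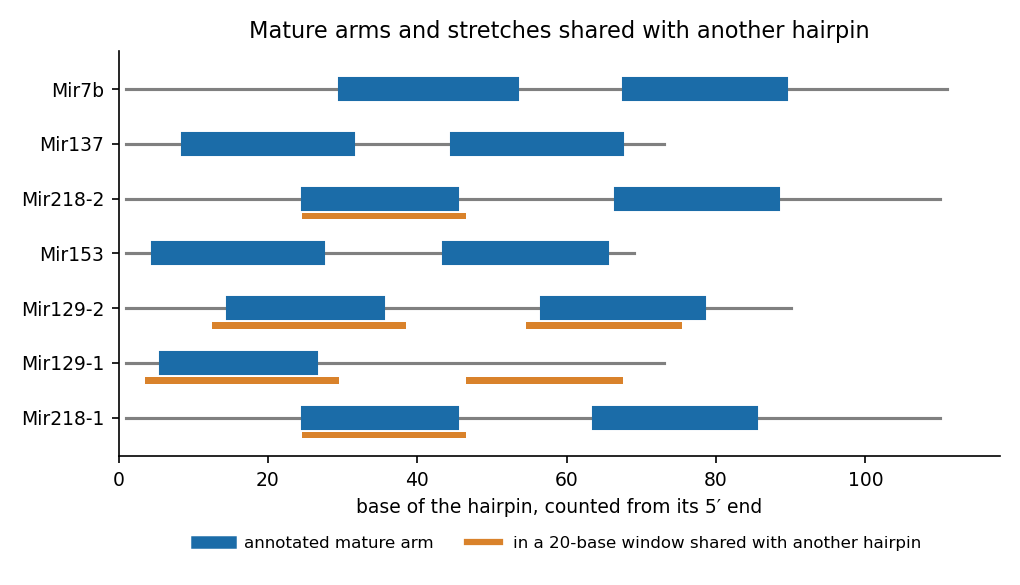
Each grey line is 1 hairpin, drawn to scale in bases from its 5′ end, with annotated mature arms as blue boxes and, in orange below, bases that lie in a 20-base window found in another hairpin. Mir7b, Mir137 and Mir153 have no orange stretch, the miR-218 pair has 1 over the 5′ arm, and the miR-129 pair has 1 over each arm.

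Replicate 1 held 3588361 sense counts in microRNA genes and replicate 2 held 4541373, and levels are given as counts per 1000000 of these totals (CPM). A read spans a whole mature microRNA, so counts were not divided by length. A count of 0 allowed up to 0.836 CPM in replicate 1 and 0.661 CPM in replicate 2, at 3 counts. Intervals are exact (Clopper-Pearson, 95%) and, with no molecular identifiers on the reads, cover only the error of counting. The libraries stood apart in markers of other organs. Mir122, the liver hairpin, made up 0.0892% of the counts in replicate 1 and 19.8% in replicate 2, and the muscle hairpin Mir206 had 3540 and 3 counts. Leaving Mir122 out of the totals raised every log2 ratio of replicate 2 to replicate 1 by 0.32 before the pseudocount, so differences of the members between the libraries are given under both totals, as are those of the marker lists. Mir375, a hairpin of endocrine cells, was at 33380 and 29004 CPM.

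All 7 hairpins were detected, with at least 10 counts in each library, as were 352 of the 2202 genes. In unique counts their levels spanned a 777-fold range, from Mir7b at a mean of 4884 CPM to Mir218-1 at 6.29 CPM. The counts of the 4 members that share stretches with a copy are lower limits, Mir218-1 among them. This range may therefore be too wide. Together the 7 members held 0.647% of the counts in replicate 1 (0.639 to 0.655) and 0.465% in replicate 2 (0.458 to 0.471), a mean of 0.556% ± 0.129 (SD, n = 2). With Mir122 out of the totals these shares were 0.648% and 0.579%. Mir7b alone was 87.8% of that sum in replicate 1 and 87.9% in replicate 2, shares that those lower limits may make too high. Without Mir7b the other 6 members held 0.0786% and 0.0562% of the counts.

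Mir7b (ENSMUSG00000065491.1) was by far the highest member. It lies on chromosome 17 (mm10, 56242988 to 56243098, plus strand), outside any annotated gene and 183 bases from the long noncoding RNA gene AC026385.1. It had 20394 counts in replicate 1, or 5683 CPM (5606 to 5762), and 18549 counts in replicate 2, or 4084 CPM (4026 to 4144). The mean was 4884 CPM ± 1131 (SD, n = 2), rank 34 of the 352 detected genes, between Mir98 at 4968 CPM and Mir27b at 4556 CPM. Mir98 is a let-7 family hairpin, and Mir27b belongs to a cluster with Mir23b and Mir24-1. Mir7b was the source of nearly all unique miR-7 counts: of those from Mir7b, Mir7-1 and Mir7-2 it held 93.2% (92.9 to 93.6) in replicate 1 and 92.5% (92.1 to 92.9) in replicate 2.

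Mir7-1 and Mir7-2 both give miR-7a-5p, which has the same seed as miR-7b-5p. The sequences differ by 1 substitution over their first 23 bases, A10U, with the base of miR-7a-5p first and positions counted from the 5′ end. A read that covers that base separates Mir7b from the other 2 genes. Reads of miR-7a-5p alone fit both Mir7-1 and Mir7-2, which share 24 bases there, so the share of Mir7b given above may be too high. The levels of Mir7-1 were 364 and 259.6 CPM in replicates 1 and 2, and those of Mir7-2 were 48.5 and 71.6 CPM.

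Mir137 (ENSMUSG00000065569.2) was the second highest member, an order of magnitude below Mir7b. It lies on chromosome 3 (118433857 to 118433929, plus strand), in an exon of the noncoding gene Gm26871. It had 2367 counts, or 660 CPM (633 to 687), in replicate 1 and 1904 counts, or 419 CPM (401 to 439), in replicate 2. The mean was 539 CPM ± 170 (SD, n = 2), rank 103, next to Mir150, a lymphocyte hairpin, at 553 CPM and Mir376c at 501 CPM. Mir7b exceeded Mir137 in both libraries, 8.62-fold (8.26 to 8.99) in replicate 1 and 9.74-fold (9.29 to 10.2) in replicate 2, and their libraries did not overlap.

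The miR-218 hairpins lie in introns of the axon guidance genes Slit2 and Slit3, which encode secreted ligands of Robo receptors. Mir218-2 (ENSMUSG00000065583.1), in Slit3 on chromosome 11 (35616816 to 35616925, plus strand), had 215 counts in replicate 1 and 170 in replicate 2. These are 59.9 CPM (52.2 to 68.5) and 37.4 CPM (32.0 to 43.5), with a mean of 48.7 CPM ± 15.9 (SD, n = 2) at rank 214. Mir218-1 (ENSMUSG00000065603.1), in Slit2 on chromosome 5 (48223942 to 48224051, plus strand), had 23 and 28 counts. That is 6.41 CPM (4.06 to 9.62) and 6.17 CPM (4.10 to 8.91), rank 312, so Mir218-1 was near the lower end of the detected genes. Of the unique counts of the pair, Mir218-2 held 90.3% (85.9 to 93.8) in replicate 1 and 85.9% (80.2 to 90.4) in replicate 2. The ratio of the hairpins was 9.35 (6.07 to 15.1) and 6.07 (4.05 to 9.41), and no difference between the libraries was detectable in it (Fisher's exact test, adjusted p = 0.247 over all pairs of detected genes). Only reads outside the shared 22 bases or running past them enter this ratio, so it need not hold for miR-218-5p as a whole.

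In unique counts the miR-129 hairpins were likewise unequal. Mir129-2 (ENSMUSG00000065511.1) lies on chromosome 2 (94241364 to 94241453, minus strand), in an intron of the noncoding gene Mir670hg and facing the annotated hairpin Mir129b on the plus strand. It had 96 counts, or 26.8 CPM (21.7 to 32.7), in replicate 1 and 198 counts, or 43.6 CPM (37.7 to 50.1), in replicate 2. The reads were on the strand of Mir129-2: Mir129b itself had 1 sense count in replicate 1 and 0 in replicate 2. In the column that ignores strand, where reads on both genes are ambiguous, Mir129-2 kept only 2 and 0 counts. Mir129-1 (ENSMUSG00000065469.1), in an exon of the noncoding gene Gm3294 on chromosome 6 (29022619 to 29022691, plus strand), had 23 and 42 counts. These are 6.41 CPM (4.06 to 9.62) and 9.25 CPM (6.67 to 12.5). Mir129-2 exceeded Mir129-1 4.17-fold (2.63 to 6.90) in replicate 1 and 4.71-fold (3.37 to 6.74) in replicate 2. No difference between the libraries was detectable in this ratio by Fisher's exact test (adjusted p = 0.746), and the interval of each holds the ratio of the other. Only reads that differ between the hairpins enter the ratio, so it need not hold for miR-129-5p as a whole.

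Mir153 (ENSMUSG00000065538.1) lies in an intron of Ptprn2 on chromosome 12 (117250817 to 117250885, plus strand). Ptprn2 encodes phogrin, a membrane protein of dense-core secretory vesicles in neuroendocrine cells. Mir153 had 98 counts, or 27.3 CPM (22.2 to 33.3), in replicate 1 and 211 counts, or 46.5 CPM (40.4 to 53.2), in replicate 2. Its mean of 36.9 CPM ± 13.5 (SD, n = 2) was at rank 233, directly above Mir129-2 at 35.2 CPM ± 11.9. Mir153 and Mir129-2 kept almost the same ratio to each other in both libraries, 1.02 (0.762 to 1.37) and 1.07 (0.874 to 1.30).

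Some neighbours in the order of levels were separated by more than the spread between libraries and others were not. Mir7b, Mir137 and Mir218-2 stood apart in that order, with no overlap between neighbouring hairpins' libraries, and so did Mir129-2 above Mir129-1. Mir218-2 and Mir153 overlapped, with Mir218-2 higher in replicate 1 (2.19-fold) and lower in replicate 2 (0.806-fold). Mir153 and Mir129-2 overlapped, as did Mir129-1 and Mir218-1, which had the same 23 counts in replicate 1. Mir7b, Mir137 and Mir153 had no shared stretch in the search of annotated hairpins, while the places of the other 4 rest on lower limits. Losses of shorter or mismatched reads, or to the rest of the genome, were not searched for any member.

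**Figure D2:**
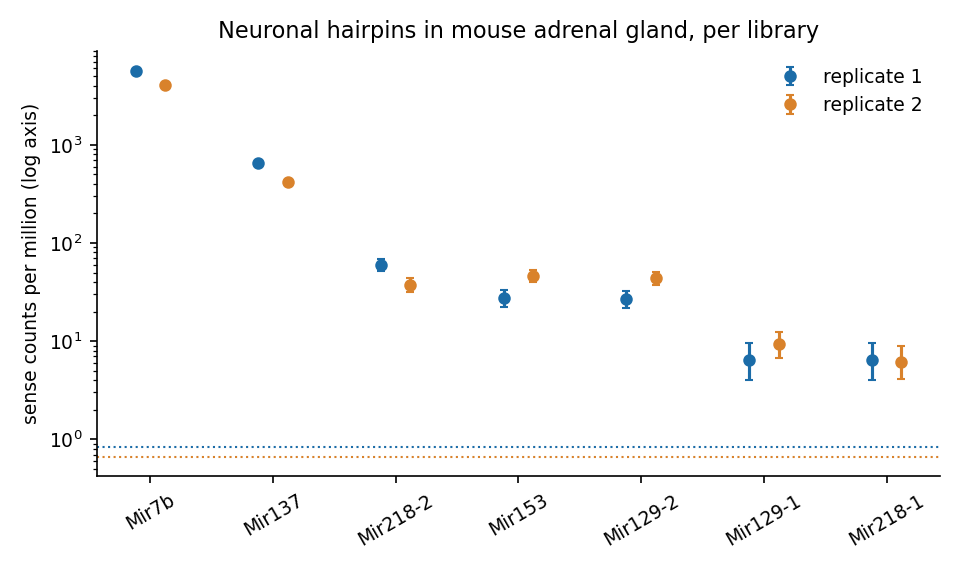
Points are sense CPM on a log axis for each hairpin and library, with exact 95% intervals of counting error, and dotted lines mark 3 counts in each library. Every hairpin lies above the lines, Mir7b and Mir137 stand clear of the rest, and Mir218-2, Mir153 and Mir129-2 lie close together between 26.8 and 59.9 CPM.

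The members did not move as one between the libraries. The counts of each gene were set against the library totals in a binomial test (exact, two-sided), adjusted by Benjamini-Hochberg over all 352 detected genes. This compares these libraries and no condition. Of the 7 members 5 were called, where 67% of all detected genes were, 3 as higher in replicate 1 (background 36.6%) and 2 as higher in replicate 2 (background 30.4%). These shares are near the background for so few genes. The median log2 ratio of replicate 2 to replicate 1, on log2(CPM + 1), was -0.05 over the members and -0.04 over all detected genes.

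Mir7b, Mir137 and Mir218-2 were lower in replicate 2. The level of Mir7b there was 0.719 of that in replicate 1 (0.704 to 0.733, adjusted binomial p = 9.33e-232), and with Mir122 out of the totals it was 0.895 (0.877 to 0.913). Mir137 stood at 0.636 (0.598 to 0.675, adjusted binomial p = 9.43e-49), or 0.791 without Mir122. Mir218-2 stood at 0.625 (0.508 to 0.768, adjusted binomial p = 1.03e-05), or 0.778 (0.632 to 0.956) without Mir122.

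Mir153 and Mir129-2 were higher in replicate 2. Mir153 was 1.70-fold higher (1.33 to 2.18, adjusted binomial p = 2.10e-05), and 2.12-fold (1.66 to 2.72) without Mir122. Mir129-2 was 1.63-fold higher (1.27 to 2.10, adjusted binomial p = 0.00013), and 2.03-fold (1.58 to 2.62) without Mir122. Mir129-1, at a ratio of 1.44 (0.848 to 2.51), did not pass (adjusted binomial p = 0.229), but it did with Mir122 out of the totals, at 1.80 (1.06 to 3.13, adjusted binomial p = 0.0356). Mir218-1 had a ratio of 0.962 (0.534 to 1.75) and no difference was detectable at its 23 and 28 counts. With Mir122 out of the totals the calls split into 3 members higher in each library, beside 175 and 75 of 351 genes higher in replicates 2 and 1. That moved the share of all calls that were higher in replicate 2 from 45.3% to 70%.

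**Figure D3:**
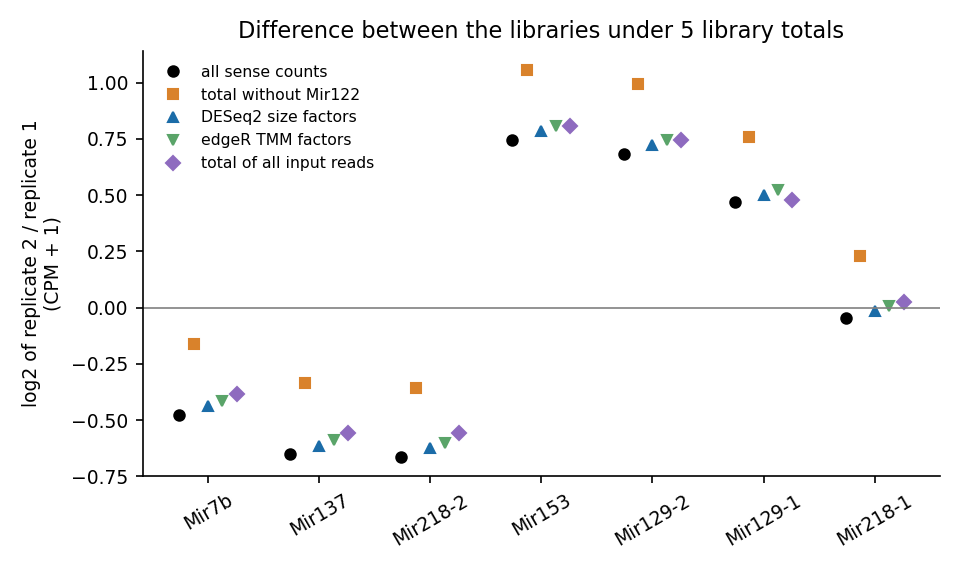
Each point is the log2 ratio of replicate 2 to replicate 1 (CPM + 1) of 1 hairpin, under 5 choices of library total, and the grey line marks equal levels. Mir7b, Mir137 and Mir218-2 stay below the line and Mir153, Mir129-2 and Mir129-1 above it under all 5 totals, while Mir218-1 crosses it.

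Ratios between members need no library total, so Mir122 cannot enter them. The ratio of each pair was compared between the libraries by Fisher's exact test, adjusted by Benjamini-Hochberg over all 61776 pairs of detected genes, a comparison added after the levels had been seen. Of the 21 pairs of members 10 differed, where 60% of all pairs did, so the count is no more than the background. The pairs follow the directions already given and add no independent evidence of them. Mir137 had 24.2 times the counts of Mir153 in replicate 1 (19.7 to 29.9) and 9.02 times in replicate 2 (7.82 to 10.5), the lowest adjusted p of the members' pairs (2.57e-15, Fisher's exact test). Mir7b had 208 times the counts of Mir153 in replicate 1 (171 to 256) and 87.9 times in replicate 2 (76.8 to 101). The ratio of Mir137 to Mir218-2 was 11.0 (9.57 to 12.7) and 11.2 (9.57 to 13.2), and was not called (adjusted p = 0.949, Fisher's exact test). The ratio of Mir7b to Mir137, both lower in replicate 2, went from 8.62 to 9.74 (adjusted p = 0.000345, Fisher's exact test).

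Other hairpins known from neurons ranged from 0 counts to above every member but Mir7b. Of the 15 on that list, which holds no member, 8 were detected and 10 share a stretch of 20 bases with another hairpin. The sum of the list is therefore a lower limit, as is that of the 6 members other than Mir7b. It was 1038 CPM in replicate 1 and 728 CPM in replicate 2. In unique counts that is below Mir7b alone and above the other 6 members together (786 and 562 CPM). Most of the list's sum was Mir132, an activity-regulated hairpin of neurons that other cells make too, at 819 and 530 CPM. Its mean was 675 CPM against 539 CPM for Mir137. Mir128-1 had 75.8 and 44.9 CPM, Mir138-1 had 58.2 and 55.3 CPM, and Mir212, the neighbour of Mir132, had 35.1 and 43.4 CPM. Mir124a-1, Mir124a-2, Mir124a-3, Mir9-1 and Mir9-2 had 0 counts in both libraries, and Mir9-3 had 1 count in replicate 1. These are the best-known brain hairpins, but the copies of each share stretches of at least 20 bases, so counts of unique reads do not show their absence. Mir873a, which shares no such stretch, had 0 counts in replicate 1 and 1 count in replicate 2.

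On the same list 3 of 8 hairpins passed as higher in replicate 1 (background 36.6%) and 1 passed as higher in replicate 2 (background 30.4%). The median log2 ratio of the 8 was -0.26, against -0.04 over all detected genes. Mir128-1 stood at 0.593 of its replicate 1 level (adjusted binomial p = 3.86e-08) and Mir132 at 0.647 (adjusted binomial p = 4.86e-56). Mir128-2 was the third, at 0.300 (adjusted binomial p = 0.000694). Mir383 was 1.83-fold higher in replicate 2 (adjusted binomial p = 0.000124). With Mir122 out of the totals the same list summed to 1039 and 908 CPM, with 3 hairpins higher in replicate 1 and 2 in replicate 2. The second of these was Mir212, at a ratio of 1.54 (adjusted binomial p = 0.000252). The background without Mir122 was 75 of 351 genes for replicate 1 and 175 of 351 for replicate 2. The miR-7 paralogs also parted: Mir7-1 stood at 0.714 (adjusted binomial p = 1.52e-16), as Mir7b did at 0.719, while Mir7-2 was 1.48-fold higher in replicate 2 (adjusted binomial p = 5.75e-05). Without Mir122 in the totals these ratios were 0.889 and 1.84, and both were still called. Reads of miR-7a-5p alone fit both genes, so both ratios rest on other reads, which differ between the 2 hairpins.

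**Figure D4:**
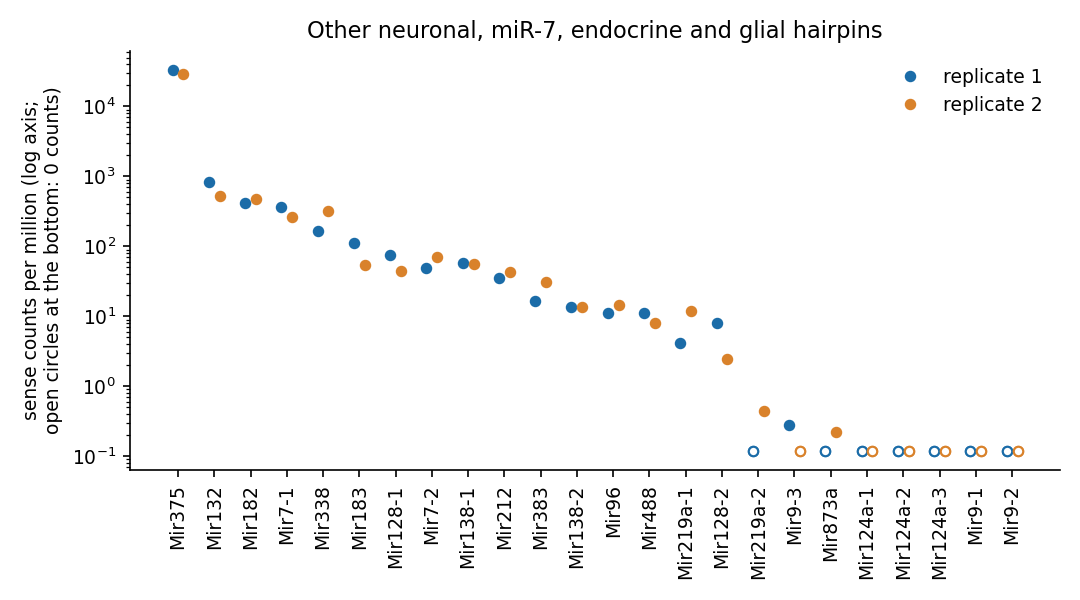
Points are sense CPM on a log axis in each library for 24 hairpins of the neuronal, miR-7, endocrine and glial lists, with open circles at the bottom for 0 counts. Mir375 stands far above the others at 33380 and 29004 CPM, and the Mir124a copies, Mir9-1 and Mir9-2 have no counts.

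Markers of other cell types differed between the libraries alongside the members, as did 67% of all detected genes. The glial list (Mir338, Mir219a-1 and Mir219a-2, known from myelinating cells) had 2 of 3 hairpins detected and summed to 171 CPM in replicate 1 and 332 CPM in replicate 2, or 171 and 414 CPM with Mir122 out of the totals. Mir338 was 1.92-fold higher there (adjusted binomial p = 1.22e-43) and Mir219a-1 was 2.84-fold higher (adjusted binomial p = 0.000281). The endocrine and sensory list (Mir375, Mir182, Mir183 and Mir96), 4 of 4 detected, summed to 33919 and 29549 CPM, but to 33950 and 36823 CPM with Mir122 out of the totals, so its direction turned with the total. Mir375 made up most of it and turned with it, from a ratio of 0.869 to 1.08. The rest of the list kept its directions. Mir183 was called lower in replicate 2 under both totals, at ratios of 0.491 and 0.611. Mir182 was called higher there under both, at 1.14 and 1.42. Mir96, at 1.28 and 1.60, was called only with Mir122 out of the totals.

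The endothelial list, 4 of 4 detected, summed to 68035 and 68372 CPM, most of it Mir126a, an endothelial hairpin, called at a ratio of 0.968. The other 3 were called higher in replicate 2: Mir130a from 4389 to 6594.5 CPM, Mir221 by 1.08-fold and Mir222 by 1.76-fold, and the list's median log2 ratio was 0.35. Of all detected genes 30.4% were called higher in replicate 2. Without Mir122 in the totals all 4 of the list were called higher there, with sums of 68096 and 85204 CPM, beside 175 of 351 genes. The smooth muscle and stroma list, 5 of 6 detected, summed to 49832 and 33054 CPM, or 49876 and 41192 CPM without Mir122, and most of that was Mir143, a smooth muscle hairpin. Under both totals 3 of its hairpins were called higher in replicate 1, and Mir214 was called higher in replicate 2, 4.39-fold and 5.46-fold. The background for replicate 1 was 36.6% of all detected genes, and 75 of 351 genes without Mir122. The liver list, 3 of 4 detected, summed to 949 and 198916.5 CPM, and the skeletal muscle list to 993 and 0.661 CPM with 0 of 5 detected in both libraries. Without Mir122 itself and with its counts out of the totals, the rest of the liver list was at 57.5 and 1699 CPM, and the skeletal muscle list at 994 and 0.823 CPM. The part of these cells in the differences of the members was not tested.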

How the data were processed

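Per the files that accompany the tables, reads were aligned to mm10 and counted against GENCODE M21 by the authors, and the deposited values are raw counts per microRNA gene, not normalised. The aligner, the trimming of adapters and the counter were not given in the sources used here. Below 4 summary lines, left out of totals, each table has 3 count columns (either strand, sense, antisense). In replicates 1 and 2, unmapped reads were 21.3% and 22.8% of the input, reads outside microRNA genes 5.73% and 5.99%, and sense counts 41.4% and 44.2%. Sense counts were used, as CPM.

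A gene was detected if it had 10 or more counts in each library. A pseudocount of 1 CPM entered log2 ratios, while printed fold ratios are of CPM with none. The libraries were compared by an exact binomial test (adjusted p threshold 0.05). Counts of 352 genes, 200 of them changed, were simulated with Poisson error. The test recovered 78.0% of changes of 1.5-fold, with 2.23% of unchanged genes called, and 90.2% of changes of 2-fold, with 2.19% called. Such counts hold only the error that the test assumes, so these rates do not carry over to real libraries. The test weighs counting error only. Positions came from GENCODE M21 and sequences from RefSeq (GRCm38.p6). Stretches of 20 bases were sought on both strands of the other 2201 hairpins, leaving out overlapping ones, and not in the whole genome.

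Named genes were the members, their neighbours in rank, their hosts, hairpins with a shared seed, Mir122 and leading members of 8 marker lists. The members, lists and tests were chosen with earlier results of these data known. Alternatives were DESeq2 1.42.0 size factors, edgeR 4.0.16 TMM factors, totals without Mir122 or with every input read, counts from the either-strand column, other count minimums and pseudocounts, and each library left out. The marker lists without Mir122 in the totals, and ratios between pairs of genes, were added after seeing the data. Python 3.11.15, scipy 1.17.1 and R 4.3.3 were used.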

Additional observations from a re-analysis of the deposited data

How the results depend on the processing

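Of the 7 members, Mir7b, Mir137, Mir218-2, Mir153 and Mir129-2 kept direction and call under each alternative that could be run for them, and leaving out a library gives no ratio. The exception is the either-strand column, which left Mir129-2 under the count minimum, with 6 members detected. A minimum of 30 counts left 5. The share of counts held by the members was 0.237% of all input reads, since that total also holds unmapped and multiply mapped reads, against 0.556%, and 0.465% to 0.647% with a library left out. Genes called higher in replicate 2 numbered 107, and 175 with Mir122 out of the totals. The log2 ratio of Mir218-1, -0.05 and not called, was 0.0052 with TMM factors, 0.23 without Mir122 and 0.027 on input reads. Depth limits Mir218-1 and Mir129-1, at 23 to 42 counts a library. No paired analysis was possible because there is 1 group.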
